A study of Danio rerio with 4 samples.

Results

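The parvalbumin transcripts pvalb1 (ENSDARG00000037789) and pvalb4 (ENSDARG00000024433) of zebrafish fast muscle were followed through 4 libraries of whole zebrafish embryos (Danio rerio). They are 2 of the 32313 Ensembl genes in each file, chosen by identifier after earlier results of these data had shown both among the lowest polysomal ratios of morphant to wild type. All values of these genes are therefore given as a description, with no test. The libraries hold polysomal mRNA (from mRNA carrying several ribosomes, taken from 300 embryos) and total mRNA (from 50 embryos). Each fraction came from eif3ha morphants, embryos injected with an antisense morpholino against eif3ha, and from wild-type embryos, all at about 24 hours after fertilization. No strain is named, and the labels list no embryos injected with a control morpholino, so injection and loss of eIF3h, a subunit of the translation initiation factor eIF3, cannot be told apart. Each of the 4 groups is 1 library of pooled embryos, so no difference has a replicate check.

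Parvalbumins are small cytosolic proteins of the EF-hand family that bind calcium. In fast muscle fibres they take up calcium released from the sarcoplasmic reticulum after a contraction, which speeds relaxation, and fish white muscle holds them in large amounts. Zebrafish carry several parvalbumin genes. In the RefSeq annotation (assembly GRCz12tu, which is not the build of these files) pvalb8, pvalb4, pvalb1 and pvalb5 follow each other on one chromosome with no protein-coding gene between them. On another chromosome pvalb9, pvalb3 and pvalb2 do the same. Thus pvalb1 and pvalb4 are neighbours.

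Values are RPKM, reads per kilobase of gene model and per 1000000 mapped reads, which are levels per length and can be compared between genes. The mapped reads recovered from the steps of low values numbered 22001364 in morphant and 15769455 in wild-type polysomal mRNA, and 21021408 in morphant and 24939967 in wild-type total mRNA. The 50 most abundant genes held 38.8% of the summed RPKM in morphant and 43.7% in wild-type polysomal mRNA, against 24.1% in morphant and 24.2% in wild-type total mRNA. The feature named EIF3H (ENSDARG00000036116) had 128 reads in morphant and 76 in wild-type polysomal mRNA, and 95 in morphant and 119 in wild-type total mRNA. Its log2 ratio on reads, morphant over wild type, was 0.27 in polysomal mRNA (interval -0.15 to 0.70). In total mRNA it was -0.08 (-0.48 to 0.32), so no difference was detectable in either fraction at this depth. The symbol does not tell whether this feature is the targeted eif3ha copy. These are mRNA levels and give no measure of eIF3h protein. All intervals are of 95% and cover only counting error. Polysomal libraries spread more than that: of genes with 4 steps summed over both conditions, an even split was found for 20.3% in polysomal and 45.4% in total mRNA, where counting gives 50%. Intervals of polysomal ratios are thus treated as too narrow. The size of the added spread was not measured for genes with many reads, such as pvalb1. Fast-muscle markers were present in all 4 libraries, with 17 of 24 list genes at 3 RPKM or more in each.

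The pvalb1 transcript was a major polysomal mRNA of the wild-type embryo and a moderate one of the whole RNA. It stood at 295 RPKM in morphant and 2972 RPKM in wild-type polysomal mRNA, and at 59.4 RPKM in morphant and 19.5 RPKM in wild-type total mRNA. The wild-type polysomal library was highest by far and the wild-type total library lowest, with both morphant libraries in between. Reads behind these values were 4340 in morphant and 31349 in wild-type polysomal mRNA, and 835 in morphant and 325 in wild-type total mRNA. By level it ranked 304th of all genes in morphant and 44th in wild-type polysomal mRNA, and 997th in morphant and 3188th in wild-type total mRNA. Thus its place among all transcripts was closer to the top on polysomes than in total mRNA in both conditions.

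The pvalb4 transcript was less abundant than pvalb1 in every library. It stood at 13.9 RPKM in morphant and 179 RPKM in wild-type polysomal mRNA, and at 4.26 RPKM in morphant and 7.24 RPKM in wild-type total mRNA. The wild-type polysomal library was again highest, and here the morphant total library was lowest. The reads were 197 in morphant and 1825 in wild-type polysomal mRNA, and 57 in morphant and 116 in wild-type total mRNA. Its rank by level was 3142nd in morphant and 498th in wild-type polysomal mRNA, and 9943rd in morphant and 7230th in wild-type total mRNA. With few reads in total mRNA, its ratios that use these libraries are the least precise of the pair.

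**Figure D1:**
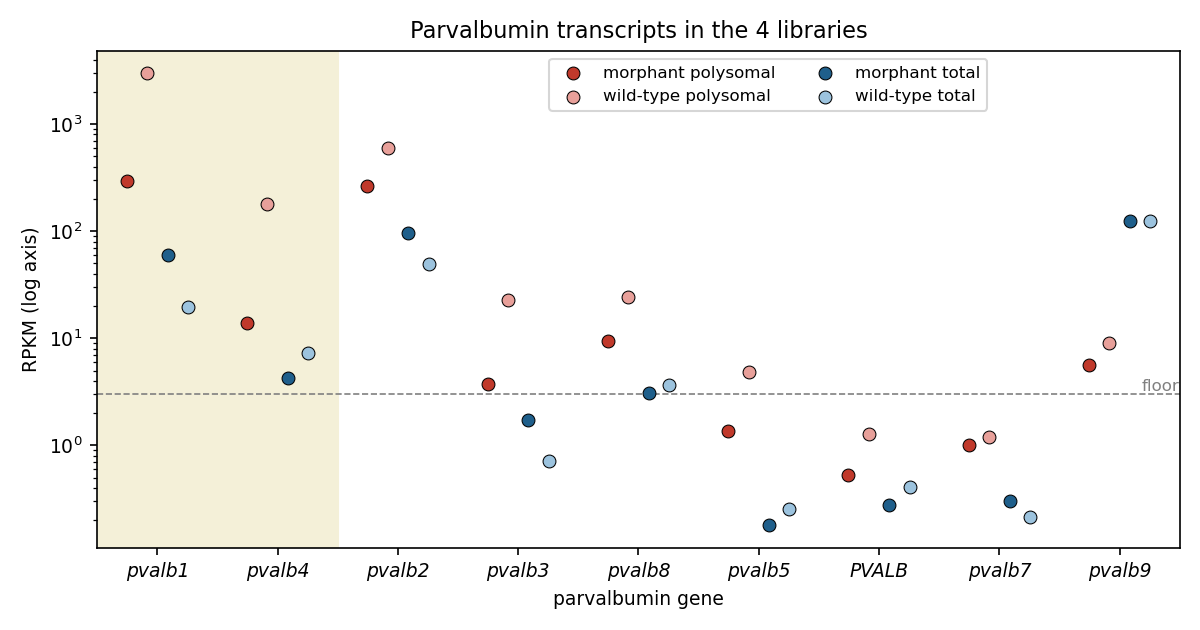
RPKM (log axis) of the 9 parvalbumin genes, 1 point for each of the 4 libraries, with pvalb1 and pvalb4 shaded and the floor of 3 RPKM dashed. The wild-type polysomal point is the highest of every gene but pvalb9, whose total mRNA points stand at 125 RPKM in morphants and 124 RPKM in wild type.

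In polysomal mRNA, both transcripts were about an order of magnitude lower in morphants. Each ratio is a log2 value, morphant over wild type, of RPKM with 0.5 added, and genes that reached 3 RPKM in at least 1 of the libraries compared count as above the floor. The ratio was -3.33 for pvalb1, which is 10.1-fold lower, and -3.64 for pvalb4, which is 12.5-fold lower. On reads without the added 0.5, the log2 ratio of pvalb1 was -3.33 (interval -3.38 to -3.29) and that of pvalb4 -3.69 (-3.91 to -3.48). Counted from the lowest ratio, pvalb4 was 8th and pvalb1 15th of the 8261 genes above the floor. Of these genes, 340 (4.12%) were at least 2-fold lower and 1.76% at least 2-fold higher in morphant polysomes, shares given as background only since this contrast was used in choosing both genes.

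In total mRNA the 2 neighbours lay on opposite sides of their wild-type levels. The ratio of pvalb1 was 1.58, which is 2.99-fold higher in morphants, while that of pvalb4 was -0.70, which is 1.63-fold lower and so within 2-fold. On reads, the log2 ratio of pvalb1 was 1.61 (interval 1.42 to 1.80) and that of pvalb4 -0.78 (-1.26 to -0.31), and the intervals did not overlap. Their log2 ratios on reads differed by 2.39 (interval 1.89 to 2.88), a 5.23-fold difference between the genes. In polysomal mRNA the same difference was 0.36 (0.14 to 0.58). The pvalb1 ratio was the 65th highest of 12154 genes above the floor. At least 2-fold higher in morphants were 1.43% of these genes, and 0.675% were at least 2-fold lower. Whole embryos were used, so fewer muscle cells and less of a transcript per cell cannot be told apart.

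The balance between the pair therefore differed most in wild-type total mRNA. Per length, pvalb1 stood at 21.2 times pvalb4 in morphant polysomal mRNA (interval 18.5 to 24.7) and 16.6 times in wild-type polysomal mRNA (15.9 to 17.5). In total mRNA it stood at 14.0 times pvalb4 in morphants (10.8 to 18.9) and 2.70 times in wild type (2.19 to 3.38). The interval of the wild-type total library lay below those of the other 3 libraries.

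Polysome association, taken as the log2 ratio in polysomal mRNA less that in total mRNA, is given for genes that reached 3 RPKM in each total library and in 1 polysomal library or both. It was -4.91 for pvalb1, the lowest of the 7546 genes with a value, and -2.94 for pvalb4, the 4th lowest. On reads, the value of pvalb1 was -4.94 (interval -5.13 to -4.75), and that of pvalb4 was -2.91 (-3.42 to -2.41). The larger value of pvalb1 is the sum of its lower polysomal and its higher total level in morphants, whereas for pvalb4 the lower total level takes up part of the polysomal difference. Among all genes with a value, 3.07% were at least 2-fold lower and 1.62% at least 2-fold higher in association. Association contains the polysomal contrast used in choosing both genes, so these ranks and shares are background only.

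**Figure D2:**
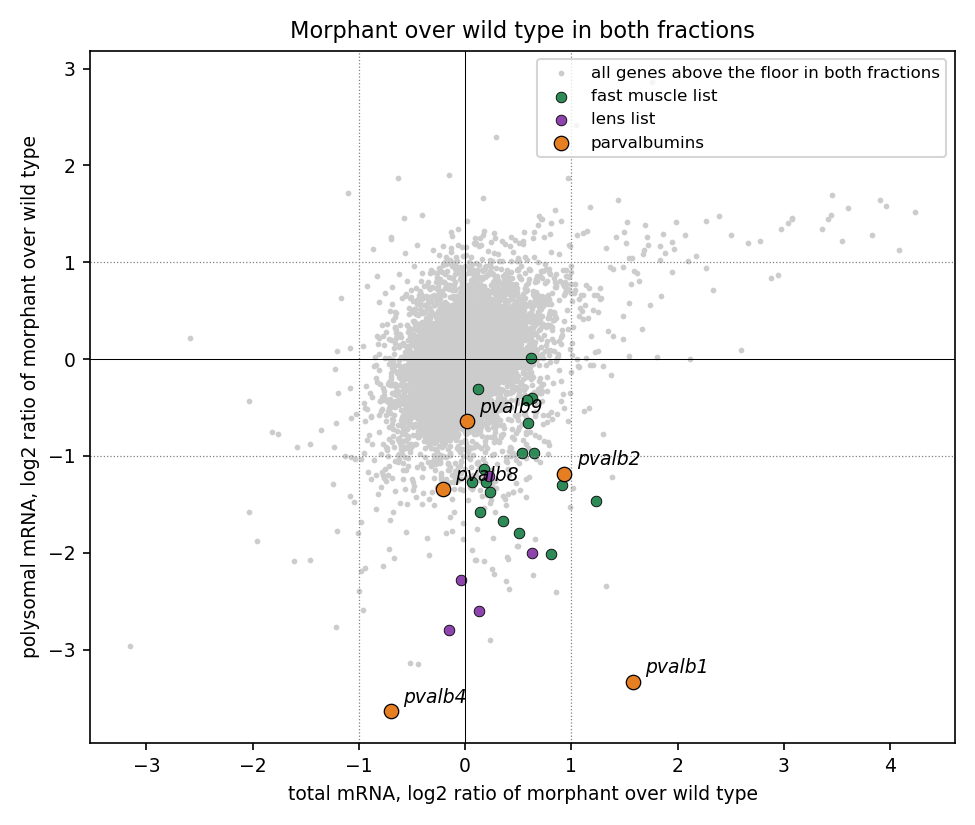
Log2 ratio of morphant over wild type in total mRNA (x axis) and in polysomal mRNA (y axis) for genes above the floor in both fractions, 1 point a gene, with dotted lines at 2-fold. The pvalb1 point lies at 1.58 and -3.33 and the pvalb4 point at -0.70 and -3.64, both below all coloured points of the fast muscle and lens lists.

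Within each condition both transcripts stood at higher RPKM in polysomal than in total mRNA. RPKM is relative to each library, and the polysomal and total libraries came from embryo pools of different size. These ratios thus compare relative levels and do not give the share of a transcript that was on polysomes. In morphants, pvalb1 was 4.93-fold higher (log2 ratio 2.30) and pvalb4 3.02-fold higher (1.60) in polysomal mRNA. In wild type, pvalb1 was 148-fold higher (log2 ratio 7.21), the highest of 12072 genes above the floor, and pvalb4 was 23.2-fold higher (4.53), the 8th highest. At least 2-fold higher in polysomal mRNA were 6.81% of the genes above the floor in morphants and 10.5% in wild type, while 41.1% in morphants and 42.7% in wild type were at least 2-fold lower. All these genes had a median of -0.70 in morphants and -0.71 in wild type. In morphants, pvalb1 was the 38th and pvalb4 the 238th highest of 11951 genes, so both were still above most transcripts there. Each polysomal library enters the contrast used in choosing the pair, so these ranks and shares are also background only. On reads, the polysomal over total log2 ratio of pvalb1 was 2.31 in morphants (interval 2.20 to 2.42) and 7.25 in wild type (7.10 to 7.42). That of pvalb4 was 1.72 in morphants (1.29 to 2.18) and 4.64 in wild type (4.37 to 4.92).

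**Figure D3:**
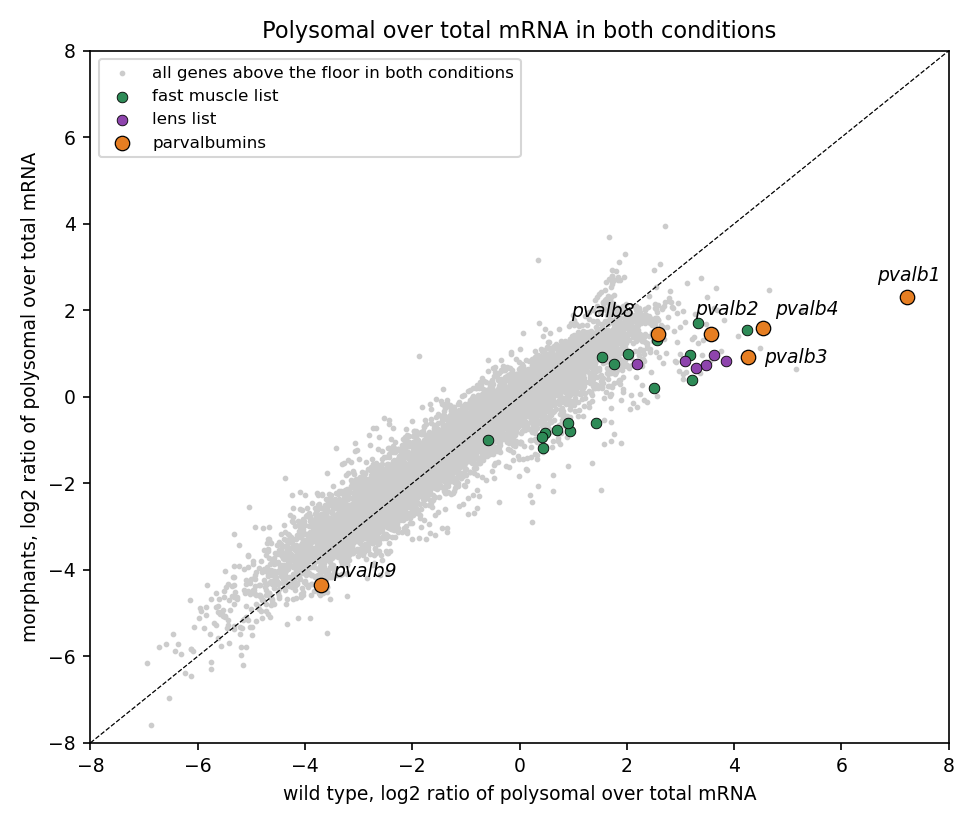
Log2 ratio of polysomal over total mRNA in morphants (y axis) and in wild type (x axis) for genes above the floor in both conditions, 1 point a gene, with equality dashed. The pvalb1 point lies farthest to the right, at 2.30 in morphants and 7.21 in wild type, and pvalb9 lies at -4.36 in morphants and -3.70 in wild type.

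Both gene models are short, at 669 bases for pvalb1 and 648 bases for pvalb4 as recovered from the steps, against a median of 2524 bases over 12179 genes. Among genes above the floor with models of 600 to 750 bases, a range chosen after both lengths were known, 6.91% of 217 were at least 2-fold lower in morphant polysomes. In association, 7.30% of 178 such genes were at least 2-fold lower, and the medians of this length class were -0.06 in polysomal mRNA and -0.02 in association. In wild type, 29.1% of 337 such genes were at least 2-fold above their total level in polysomal mRNA. Over all genes above the floor the shares were lower, at 4.12% in polysomal mRNA, 3.07% in association and 10.5% in wild type. The wild-type median of polysomal over total mRNA was -0.41 in this length class and -0.71 over all genes. The part of length in the values of the pair was not tested.

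The other 7 parvalbumin features show how far the pattern extends through the family. Joined by identifier, their symbols are pvalb2, pvalb3, pvalb5, pvalb7, pvalb8, pvalb9 and PVALB. Of these, 5 passed the floor in polysomal mRNA, and 4 of the 5 were at least 2-fold lower in morphants (pvalb2, pvalb3, pvalb5 and pvalb8), against 4.12% of all genes above the floor. Scaled to totals that leave out the 50 most abundant genes, pvalb2 no longer passed 2-fold. All but pvalb9 had their highest level in wild-type polysomal mRNA, and pvalb5 passed the floor in that library alone, which fixes its direction. Reads of 36 bases may be shared between related parvalbumin copies, and how the counting placed them is not given in the sources used here.

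In the family, pvalb2 (ENSDARG00000002768) is the other abundant parvalbumin of muscle. It stood at 263 RPKM in morphant and 597 RPKM in wild-type polysomal mRNA, and at 95.4 RPKM in morphant and 49.7 RPKM in wild-type total mRNA. As log2 ratio of morphants over wild type it had -1.18 in polysomal and 0.93 in total mRNA, with -2.12 in association. It thus shared the library order of pvalb1 at a smaller range. In both total libraries pvalb2 was above pvalb1, in wild-type polysomal mRNA pvalb1 was above pvalb2, and in morphant polysomal mRNA the 2 were close, at 295 RPKM for pvalb1 and 263 RPKM for pvalb2. The pvalb3 transcript (ENSDARG00000022817), which lies next to pvalb2, stood at 3.74 RPKM in morphant and 22.8 RPKM in wild-type polysomal mRNA, and at 1.74 RPKM in morphant and 0.721 RPKM in wild-type total mRNA. Its library order was also that of pvalb1, with a polysomal log2 ratio of -2.46.

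By point value, the neighbours of the pair on the same chromosome, pvalb8 and pvalb5, had the library order of pvalb4. That order differs from the one of pvalb1 only in the total libraries. For neither gene was the order of the total libraries clear of counting error. The pvalb8 transcript (ENSDARG00000037790, listed by RefSeq also as ocma, an oncomodulin name) stood at 9.36 RPKM in morphant and 24.5 RPKM in wild-type polysomal mRNA, and at 3.11 RPKM in morphant and 3.68 RPKM in wild-type total mRNA. Its polysomal log2 ratio was -1.34, and on reads its total log2 ratio was -0.25 (interval -0.78 to 0.28), so no difference in total mRNA was detectable at this depth. The pvalb5 transcript (ENSDARG00000032836) stood at 1.38 RPKM in morphant and 4.80 RPKM in wild-type polysomal mRNA, and had 5 reads in morphant and 9 in wild-type total mRNA. On reads its total log2 ratio was -0.60 (interval -2.53 to 1.13). Its polysomal log2 ratio was -1.50.

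The pvalb9 transcript (ENSDARG00000071601, listed also as ocmb) was the exception of the family. It stood at 5.60 RPKM in morphant and 9.03 RPKM in wild-type polysomal mRNA, and at 125 RPKM in morphant and 124 RPKM in wild-type total mRNA. It was thus the most abundant parvalbumin of total mRNA in both conditions, with 3985 reads in morphants and 4678 in wild type. Its polysomal over total log2 ratio was -4.36 in morphants and -3.70 in wild type, opposite in sign to those of every other parvalbumin. In total mRNA its log2 ratio of morphants over wild type was 0.02 (interval on reads -0.05 to 0.08), so no difference was detectable. The remaining features, PVALB (ENSDARG00000009311) and pvalb7 (ENSDARG00000034705), stayed below the floor in every library, with at most 1.27 RPKM for PVALB and 1.19 RPKM for pvalb7, both in wild-type polysomal mRNA.

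The makeup of the family was not the same in the 4 libraries. In polysomal mRNA, pvalb1 made up 49.7% of the summed parvalbumin RPKM in morphants and 78.0% in wild type, and pvalb2 made up 44.3% in morphants and 15.7% in wild type. In total mRNA, pvalb1 made up 20.5% in morphants and 9.51% in wild type, while pvalb9 led with 43.1% in morphants and 60.2% in wild type. The share of pvalb4 ranged from 1.47% in morphant total to 4.69% in wild-type polysomal mRNA. Without pvalb9, the summed level was 587 RPKM in morphant and 3802 RPKM in wild-type polysomal mRNA, and 165 RPKM in morphant and 81.8 RPKM in wild-type total mRNA.

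Of the contractile genes of fast muscle, most were lower in morphant polysomes, at smaller ratios than pvalb1, and 1 passed 2-fold in total mRNA. Of 24 list genes in the files, 17 were above the floor, and 10 were at least 2-fold lower and none higher in morphant polysomes (4.12% of all genes lower). Those lower included the myosin heavy chain genes myhz1.1 (-1.67), myhz2 (-1.58), myhz1.2 (-1.38), myha (-1.27), myhz1.3 (-1.27) and myhc4 (-1.14). Short reads may be shared between such related copies, as for the parvalbumins. The counts and medians of this list may therefore rest on fewer separate genes than are listed. The list median was -1.27 against -0.01 over all genes above the floor. In total mRNA the list median was 0.54 against -0.02 over all genes. At least 2-fold higher was 1 of 17 (TNNI2, ENSDARG00000029069, at 1.23), with none lower. Over all genes 1.43% were higher and 0.675% lower there, so 1 gene of 17 says little about the list. In association 15 of 17 were at least 2-fold lower (3.07% of all genes), with a list median of -1.51 against -0.0047 over all genes. Scaled to totals that leave out the 50 most abundant genes, 9 of 17 were lower in polysomal mRNA and 13 of 17 in association. The 3 farthest from 0 in association were TNNT3 (ENSDARG00000068457, fast troponin T) at -2.83, TNNI2 (ENSDARG00000029069, fast troponin I) at -2.70 and mybpc2b (ENSDARG00000021265, fast myosin-binding protein C) at -2.31.

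Both parvalbumins lay outside the range of this list in most comparisons, as genes chosen for extreme values would. In polysomal mRNA the list ran from -2.02 to 0.01, above -3.33 for pvalb1 and -3.64 for pvalb4. The highest value there, 0.01, belonged to another feature named TNNI2 (ENSDARG00000035958), which stood at -0.61 in association. In total mRNA the list ran from 0.07 to 1.23, with pvalb1 above it at 1.58 and pvalb4 below it at -0.70. So pvalb4 lay below 0 in total mRNA, where the 17 contractile genes lay above it. In polysomal over total mRNA the list ran from -1.18 to 1.70 in morphants, which includes pvalb4 at 1.60 but not pvalb1 at 2.30. In wild type it ran from -0.58 to 4.24, below both genes. Its median was 0.21 in morphants, which became -0.02 when totals left out the 50 most abundant genes, and 1.53 in wild type.

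Among the enzymes of muscle energy supply, 4 of 11 were at least 2-fold lower and none higher in morphant polysomes (median -0.62, with 4.12% of all genes lower). In association 7 of 10 were lower and none higher (median -1.23, with 3.07% of all genes lower). Scaled to totals that leave out the 50 most abundant genes, these counts were 2 of 11 in polysomal mRNA and 5 of 10 in association. The 3 farthest from 0 in association were ENO3 (muscle enolase) at -1.89, PYGM (ENSDARG00000013317, muscle glycogen phosphorylase) at -1.70 and AK1 (adenylate kinase) at -1.69. This PYGM feature passed the floor of the polysomal comparison in wild type alone, which fixes its direction there. Another feature named PYGM (ENSDARG00000055518), above the floor in every library, stood at -0.62 in polysomal mRNA and -1.02 in association. The thin filament and Z-disc list also holds features of SMYD1, a factor of thick filament assembly. Of its 17 genes above the floor in polysomal mRNA, 3 passed it in wild type alone. There 5 of 17 were at least 2-fold lower, SMYD1 (ENSDARG00000009280) at -1.58 among them. The 1 that was higher was also a SMYD1 feature (list median -0.73). Over all genes 4.12% were lower and 1.76% higher there. In association 6 of 15 were lower and 1 higher (median -0.46), against 3.07% lower and 1.62% higher over all genes. The 3 farthest from 0 in association were myoz1b (a Z-disc protein) at -2.52, SMYD1 (ENSDARG00000009280, a methyltransferase needed for thick filament assembly) at -1.86 and TMOD4 (a cap of thin filaments) at -1.39. The gene that was higher, at 1.17 in polysomal mRNA and 1.04 in association, is a further feature named SMYD1 (ENSDARG00000091253), given after its value was seen.

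Genes that store and release calcium in muscle, the supply that parvalbumin buffers, had a polysomal median of -0.34. Of 15 above the floor in polysomal mRNA (2 of them in wild type alone), 2 were at least 2-fold lower in morphants and none higher, against 4.12% of all genes lower. The ratios ran up to 0.43. Lowest was CASQ1 (ENSDARG00000018105, calsequestrin, which binds calcium inside the store) at -1.93, a gene named after its value was seen. Another feature named CASQ1 (ENSDARG00000038716) was below the floor in polysomal mRNA and stood at 0.79 in total mRNA. In association 3 of 14 were at least 2-fold lower (median -0.47, with 3.07% of all genes lower). They were JPH2 (a junctophilin, which ties the calcium store to the surface membrane) at -1.76, hrc (a calcium-binding protein of the store) at -1.76 and CASQ2 at -1.24. In total mRNA none of 17 passed 2-fold, at a median of 0.21, where 1.43% of all genes were higher and 0.675% lower.

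No gene of the slow muscle list or of the regulators of the muscle lineage passed 2-fold in polysomal mRNA. Among all genes above the floor, 4.12% were lower and 1.76% higher there. For lists this small, a count of none is near these shares. The slow muscle list had only 3 genes above the floor in polysomal mRNA, at a median of -0.33, with tnni1c (a slow troponin I) farthest from 0 in association at -0.98, then myl10 (-0.67) and tpm3 (-0.32). Of the 10 myogenic regulators above the floor in polysomal mRNA, 9 had ratios above 0 (median 0.28, against -0.01 over all genes). Of the 10, 3 passed the floor in morphants alone, which fixes their direction. In association 1 of 10 was at least 2-fold higher (1.62% of all genes). Without the 50 most abundant genes in the totals it was 2 of 10, while the count over all genes rose from 122 to 236. The 3 farthest from 0 were MEOX1 (a somite transcription factor) at 1.07, MYOG (myogenin, which drives fusion and differentiation) at 0.88 and six4b at 0.75. The median of the regulators in association was 0.45, against -1.51 for the fast contractile list.

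The lens list, of a tissue without muscle, had all 11 genes above the floor at least 2-fold lower in morphant polysomes (median -2.61, with 4.12% of all genes lower). In association it had 4 of 4 lower (median -2.64, with 3.07% of all genes lower), led by CRYGN at -2.74, cryba1l1 at -2.65 and cryba1b at -2.63. Of the 11, 5 passed the floor in wild-type polysomal mRNA alone and so had to be lower in morphants. Without the 50 most abundant genes in the totals, 10 of 11 were at least 2-fold lower in polysomal mRNA. Summed over its 15 genes, the lens list stood at 66.8 RPKM in morphant and 396 RPKM in wild-type polysomal mRNA, and at 39.6 RPKM in morphant and 37.8 RPKM in wild-type total mRNA. Thus the wild-type polysomal library stood apart for lens as well as for the parvalbumins, and the part of that library in the values of the pair was not tested. The neuron list had 4 of 6 genes at least 2-fold lower in polysomal mRNA (median -1.15, with 4.12% of all genes lower), a count that was 2 of 6 without the 50 most abundant genes in the totals. In association 2 of 5 were lower (3.07% of all genes), INA at -1.43 and STMN2 (ENSDARG00000033234) at -1.41, with STMN2 (ENSDARG00000070537) at -0.80. Of the 6 neuron genes in polysomal mRNA, 3 passed the floor in wild type alone, INA among them, which fixes their direction there. The heart list had none of 4 past 2-fold in polysomal mRNA (median 0.48), where 4.12% of all genes were lower and 1.76% higher. In association TNNC1 (troponin C of heart and slow skeletal muscle) stood at -0.99, HAND2 at 0.89 and cmlc1 at 0.64. Of hair cell markers, named since oncomodulins are known from hair cells of mammals, 2 of 10 passed the floor in polysomal mRNA and neither passed 2-fold. For lists as small as those of heart and hair cells, a count of none is near the shares over all genes. ATOH1, the only one of that list with an association value, stood at -0.18.

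Over all 12590 genes with at least 3 RPKM in some library, 18.6% had their highest level in wild-type polysomal mRNA, and 5.88% had the full library order of pvalb1 (wild-type polysomal, morphant polysomal, morphant total, wild-type total, from high to low). The order of pvalb4, with both total libraries exchanged, was found in 7.57%. Of the fast contractile list, 15 of 17 were highest in wild-type polysomal mRNA, 8 had the order of pvalb1 and none that of pvalb4. Of the muscle energy list, 8 of 11 had the order of pvalb1 and none that of pvalb4. Of the lens list, 4 of 11 had the order of pvalb1 and 5 that of pvalb4. However, 5 of these 11 passed the floor through wild-type polysomal mRNA alone, so that library had to come first for them. They stood below the floor in both total libraries, whose order alone tells the pvalb1 and pvalb4 orders apart.

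Genes with patterns most like each parvalbumin were sought by the Euclidean distance of log2(RPKM + 0.5), centred on each gene's mean over the 4 libraries. For pvalb1 the nearest was cox6b1 (ENSDARG00000045230, part of respiratory chain cytochrome c oxidase) at a distance of 1.41, against a median distance of 6.08 over 12589 genes. It stood at 25.5 RPKM in morphant and 137 RPKM in wild-type polysomal mRNA, and at 6.01 RPKM in morphant and 3.10 RPKM in wild-type total mRNA. Next came FABP1 (a fatty acid binding protein, 1.82), SLC25A4 (a mitochondrial carrier of ATP and ADP, 1.89) and the fin fold genes and2 (2.18) and and3 (2.29). After them came TNNI2 (ENSDARG00000029069, 2.30), pvalb3 (2.31) and pvalb4 (2.35). Of all these, SLC25A4, and2, and3 and pvalb3 stood below 3 RPKM in both total libraries, so the added 0.5 RPKM weighs on their distances. With this limit, pvalb4 was the 9th nearest gene of all to pvalb1.

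For pvalb4 the nearest genes with a symbol were mostly lens crystallins. They were crygm2d17 (distance 0.78), crygm2d20 (0.80), crygm2d4 (0.84), crygm2d12 (0.88), crybb1l2 (0.88), crygm2d13 (0.89), and3 (0.90) and cryba1l1 (1.05), against a median of 4.63. The 5 crygm2 genes passed the floor of 3 RPKM through wild-type polysomal mRNA alone. In the other 3 libraries they stood at 0.435 RPKM or less, with at most 10 reads, so the added 0.5 RPKM largely sets their values there. The and3 transcript also reached the floor in that library alone. By this measure pvalb3 was the 24th, pvalb2 the 89th and pvalb1 the 132nd nearest gene to pvalb4. The distance rests on 4 values a gene and is a description of these libraries.

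**Figure D4:**
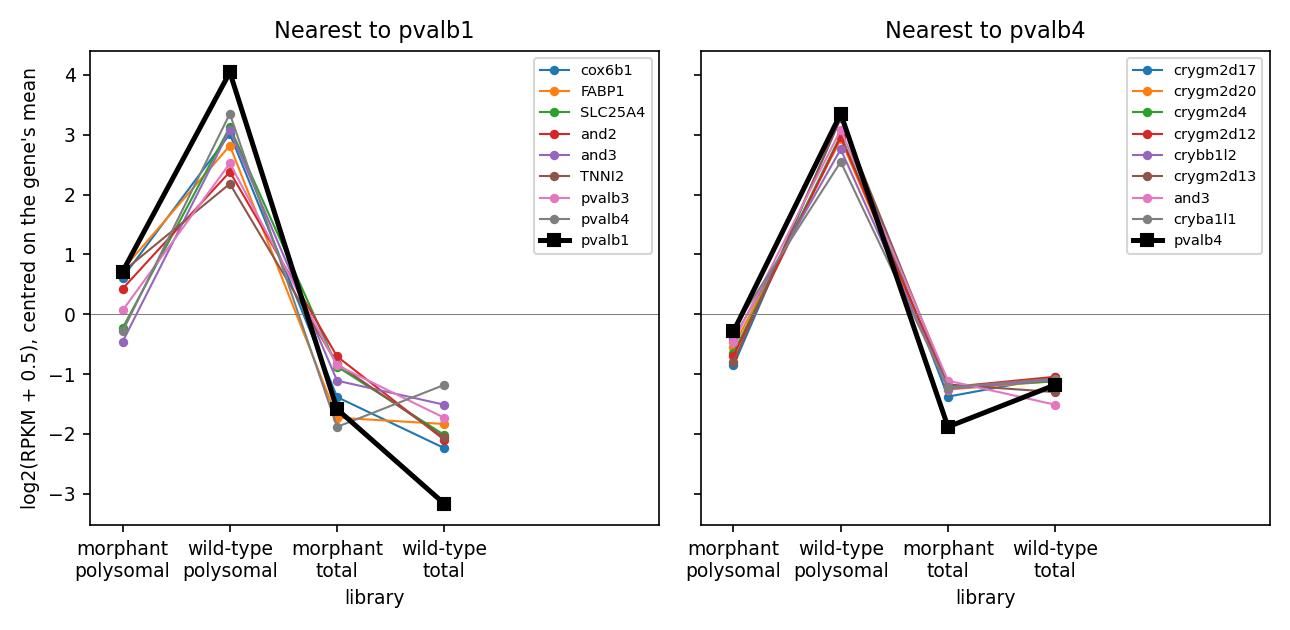
Log2(RPKM + 0.5) centred on each gene's mean (y axis) over the 4 libraries (x axis), with pvalb1 (left) and pvalb4 (right) in black and the 8 nearest genes with a symbol in colour, lines joining the values of 1 gene. The wild-type polysomal value is the highest of every gene shown, and pvalb4 is lower in morphant than in wild-type total mRNA while pvalb1 is higher.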

How the data were processed

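Polyadenylated mRNA from polysomal fractions or whole embryos was sequenced with single reads of 36 bases on an Illumina Genome Analyzer IIx, per the labels. The authors deposited 1 RPKM value per gene and library, per the file headers. The build named in the submitters' processing notes is Zv9, while for aligner, counting tool and annotation the answer is not given in the sources used here. Low RPKM values moved in steps of 1 read plus an offset of 1, and with whole-base gene lengths the steps gave depth, length and reads for 98.7% of genes (tolerance 0.005 of a step). Between the total libraries, 71.4% of genes with 5 steps were split as evenly as possible, where an offset of 1 gives 75%. Per kb of gene model, a single read adds 0.0455 RPKM in morphant and 0.0634 RPKM in wild-type polysomal mRNA, and 0.0476 RPKM in morphant and 0.0401 RPKM in wild-type total mRNA.

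Log2 ratios were taken with 0.5 RPKM added, which understates differences of low genes. Intervals on reads are exact binomial (Clopper-Pearson), and for association and differences between genes a normal approximation on the log scale. With 1 library a group no test was possible. Depth and length recovery and the 2-fold calls were checked on simulated reads with counting error only. That check does not cover the wider spread of the polysomal libraries. Symbols matched 20499 genes, and list genes were matched by symbol. The genes, the 11 lists and the rule for named genes (all parvalbumins, up to 3 genes a list farthest from 0 in association, the 8 nearest patterns) were chosen with earlier results of these data known. Alternatives were 2 other scalings, a pseudocount of 1, reads without pseudocount, no floor and a floor of 12 RPKM. The tools were SciPy 1.17.1, NumPy 2.4.6, Matplotlib 3.10.9 and pandas 2.3.3 under Python 3.11.15.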

Additional observations from a re-analysis of the deposited data

Results flagged for a closer look

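Some genes named in the report had a ratio of morphant over wild type on one side of 0 in polysomal mRNA and on the other in total mRNA, with both counting intervals off 0. Genes listed with an association value also reached 3 RPKM in each total library. Apart from parvalbumins and cox6b1, they were named for lying far from 0 in association, a choice that favours opposite signs. The difference between the fractions was not tested, since each group is 1 library. It is given here as polysome association, the log2 ratio in polysomal mRNA less that in total mRNA. Among parvalbumins it was -4.91 for pvalb1 (-3.33 in polysomal and 1.58 in total mRNA) and -2.12 for pvalb2, while pvalb4 was lower in both fractions. Among fast contractile genes it was -2.83 for TNNT3 (ENSDARG00000068457), -2.70 for TNNI2 (ENSDARG00000029069) and -2.31 for mybpc2b, and for the slow troponin tnni1c it was -0.98. Among calcium-handling genes it was -1.76 for JPH2, -1.76 for hrc and -1.24 for CASQ2. Among energy enzymes it was -1.89 for ENO3, -1.70 for PYGM and -1.69 for AK1. In the thin filament and Z-disc list it was -2.52 for myoz1b, -1.86 for SMYD1 (ENSDARG00000009280) and -1.39 for TMOD4. It was -0.99 for TNNC1, which heart and slow skeletal muscle share, -2.63 for the lens gene cryba1b, -1.43 for the neuronal gene INA and -3.26 for cox6b1 of the respiratory chain. On the other side, higher in morphant polysomes and lower in morphant total mRNA, were the regulators MEOX1 at 1.07, MYOG at 0.88 and six4b at 0.75. Some of these signs rest on small log2 ratios, as for MEOX1 in polysomal mRNA (0.24) and six4b in total mRNA (-0.18). The same holds for PYGM (ENSDARG00000013317, 0.24) and INA (0.22) in total mRNA. Counting intervals of polysomal ratios are treated as too narrow, so a small polysomal ratio may not be clear of 0. In polysomal mRNA, INA and this PYGM feature reached 3 RPKM in wild type alone, which fixes their direction there.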

How the results depend on the processing

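The 10 log2 ratios of pvalb1 and pvalb4 were recomputed under 4 alternatives each. None of the 40 values changed sign, 33 stayed within the counting interval, and all 36 whose ratio as reported was past 2-fold remained past it. Scaled to totals that leave out the 50 most abundant genes, the polysomal ratio of morphant to wild type was -3.10 for pvalb1 and -3.41 for pvalb4, and the association of pvalb1 was -4.71. Polysomal over total mRNA was then 2.06 for pvalb1 in morphants, and in wild type 6.77 for pvalb1 and 4.10 for pvalb4. The median of all genes in that comparison moved to -0.96 in morphants and -1.17 in wild type. With median-of-ratios scaling, pvalb1 stood at 2.47 in morphants, where the median of all genes was -0.52. Without the 50 most abundant genes the median polysomal ratio of all genes was 0.22, and 206 genes were at least 2-fold lower and 302 higher in morphants, against 340 lower and 145 higher as reported. In association 154 were then lower and 236 higher, against 232 lower and 122 higher. Counts past 2-fold without a floor and with a floor of 12 RPKM were 829 and 219 in polysomal mRNA (485 as reported), 468 and 112 in total mRNA (256), and 1426 and 117 in association (354). For polysomal over total mRNA they were 8880 and 2243 in morphants (5727) and 9665 and 2697 in wild type (6423). The 57 reads of pvalb4 in morphant total mRNA limit the precision of its ratios with that library. No paired analysis was possible because each group is 1 library.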
